A study of Mus musculus with 4 samples.

Results

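The secreted Wnt ligands, their Frizzled receptors and the secreted factors that block or boost them were examined in cultured mouse primary myoblasts that lacked Tet2. Members were taken by gene name, as every gene of the Wnt, Fzd, Sfrp, Dkk and Rspo families that carries a number after the family name, and 41 of the 24445 genes in the table matched. They comprised 19 Wnt, 10 Fzd, 4 Sfrp, 4 Dkk and 4 Rspo genes.

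RNA was sequenced from 4 libraries, 2 from WT and 2 from Tet2 KO mice of the strain C57BL/6, all of them myoblasts from hindlimb skeletal muscle. Per the study's methods, the constitutive knockout removed exon 3 of Tet2, whose protein converts methylated cytosines of DNA to oxidised forms, and mice were males of 8 to 10 weeks unless stated otherwise. Satellite cells, the stem cells of muscle, were sorted as negative for CD45, CD11b, CD31 and Sca1 and positive for CD34 and Integrin a7, then cultured on collagen for at least 3 days without a differentiation step. Neither the labels nor the methods say whether each library came from a separate animal. The table gives 1 expression value per gene and group, in FPKM (fragments per kilobase of transcript, scaled to the mapped fragments of the library), so no spread between libraries stands beside any value here, and the p-values that the authors deposited were not used.

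Wnt proteins are secreted, lipid-modified signals. They bind Frizzled receptors on the cell surface, and together with the co-receptors Lrp5 and Lrp6 they keep beta-catenin from being destroyed, which lets it act with Tcf and Lef factors on genes in the nucleus. Other branches act through planar cell polarity proteins or calcium. Sfrp proteins bind Wnts outside the cell, some Dkk proteins such as Dkk1 bind the co-receptors, and R-spondins (Rspo) protect the receptors from removal. In muscle, Wnt signals are known to act on satellite cells and on their differentiation.

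A member was taken as expressed when the mean FPKM of the groups was 1 or more, which 12 of the 41 members and 11692 of all genes (47.8%) reached. Ratios are given as log2((Tet2 KO FPKM + 1)/(WT FPKM + 1)) unless a plain ratio is named, and the added 1 understates the change of low genes. A gene was called higher or lower when this ratio lay at or beyond a 1.5-fold difference, 0.585 on the log2 scale. Of the 12 expressed members, 2 (16.7%) were called lower in Tet2 KO and 0 were called higher. Over all 11692 expressed genes, 2.89% were called lower and 3.72% were called higher. The 2 called members were Wnt9a, a ligand, and Fzd9, a receptor, with 0.492 and 0.473 of the WT level.

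The low values of the table fall in steps, which lets the number of fragments behind a value be estimated. In genes with a single annotated transcript, the lowest common step, FPKM multiplied by length in kilobases, was 0.0221 in Tet2 KO and 0.0217 in WT, and it was read here as 1 fragment. On that reading the expressed members rested on about 144 to 2581 fragments per group. Intervals named counting intervals below are exact 95% binomial intervals from such fragments, on the plain log2 ratio. They cover counting error only, and the spread between libraries or mice, which is not in them, was not measured.

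**Figure D1:**
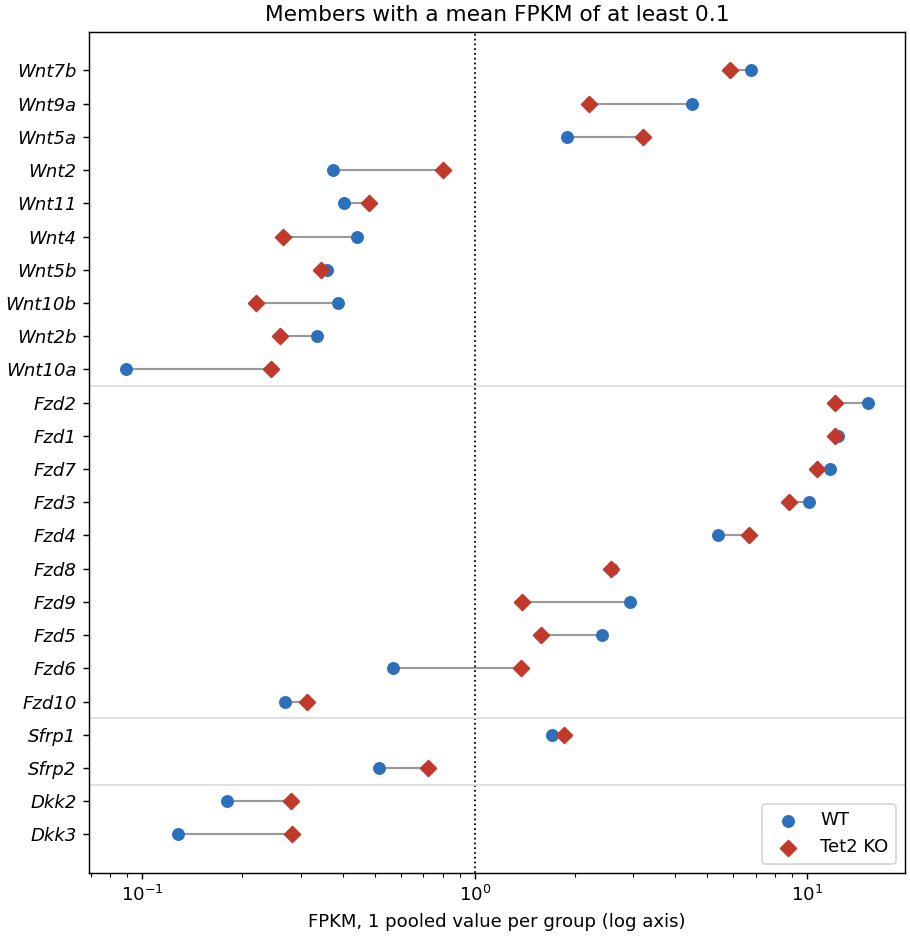
FPKM in WT (blue circles) and Tet2 KO (red diamonds), 1 pooled value per group on a log axis, for the 24 members whose group mean reached 0.1 FPKM; grey lines join the groups and the dotted line marks 1 FPKM. Wnt9a, Fzd9 and Fzd5 lie to the left in Tet2 KO, Wnt5a and Fzd6 to the right, and Fzd1, Fzd8 and Wnt5b hardly part. Of the members below 1 FPKM in both groups, Wnt10a, Dkk3 and Wnt2 also lie clearly to the right and Wnt10b and Wnt4 to the left.

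Among the ligands, 3 of 19 Wnt genes were expressed, and they made up 79.9% of the summed FPKM of all Wnt genes in Tet2 KO and 83.8% in WT. Wnt7b was the most abundant in both groups. Its locus is chr15:85365867-85424138 on the minus strand of mm9, with 4 exons in the longest annotated transcript. Wnt7b had 5.85 FPKM in Tet2 KO against 6.79 in WT, a log2 ratio of -0.19 that was not called. The counting interval of its plain ratio ran from -0.34 to -0.09. The antisense gene AU022754 shares 38 exon bases with it and had 0.0064 FPKM in Tet2 KO against 0.0385 in WT.

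Wnt9a lies at chr11:59120432-59147054 on the plus strand of mm9 and is annotated with 4 exons. Its level was 2.21 FPKM in Tet2 KO against 4.49 in WT, a difference of -2.28 FPKM. Tet2 KO thus held 0.492 of the WT level, which gives a plain log2 ratio of -1.02 and -0.77 with the pseudocount. The counting interval of the plain ratio ran from -1.22 to -0.83, on about 332 and 687 fragments. Wnt9a made up 28.6% of the summed Wnt FPKM in WT and 15.7% in Tet2 KO, the second place among the ligands in WT and the third in Tet2 KO.

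Wnt5a, a ligand best known for signalling outside the beta-catenin branch, took the second place in Tet2 KO. It lies at chr14:29318659-29338701 on the plus strand of mm9, with 5 exons. Wnt5a had 3.20 FPKM in Tet2 KO against 1.89 in WT. Its log2 ratio of 0.54 stayed short of the threshold, whereas the plain log2 ratio of 0.76, with a counting interval from 0.61 to 0.91, lay beyond it. Its share of the summed Wnt FPKM was 22.7% in Tet2 KO and 12.0% in WT. The antisense gene Gm2670 shares 358 exon bases with Wnt5a, 4.58% of its exon bases, and the labels name a library kit that does not mark strand. The 3 ligands thus differed in direction, while the summed level of all Wnt genes was 14.1 FPKM in Tet2 KO against 15.7 in WT.

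The other 16 Wnt genes were below 1 FPKM. Wnt2 was the highest of them and had 0.801 FPKM in Tet2 KO against 0.375 in WT, with a counting interval of the plain log2 ratio from 0.53 to 1.69. Wnt4 had 0.265 FPKM in Tet2 KO against 0.443 in WT, and Wnt10b, a ligand known to hold back fat cell formation in myoblasts, had 0.220 and 0.387 FPKM. Wnt10a had 0.244 and 0.0893 FPKM, on about 27 and 10 fragments. Wnt11 had 0.480 FPKM in Tet2 KO against 0.404 in WT. Wnt2b had 0.259 and 0.336 FPKM, and Wnt5b 0.345 and 0.358 FPKM. These ligands split between higher and lower values, and all of them rest on fewer than 100 fragments a group.

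The other 9 Wnt genes lay below 0.1 FPKM, from Wnt6 with 0.0954 FPKM in Tet2 KO against 0.0563 in WT downwards. Wnt6, Wnt3, Wnt16, Wnt9b and Wnt8b were detected in both groups at about 10 fragments or fewer. Wnt7a, a ligand known to expand satellite cells, was listed at 0 in Tet2 KO and had 0.00573 FPKM in WT, about 1 fragment. Wnt8a was likewise listed at 0 in Tet2 KO and rested on about 1 fragment in WT. Wnt1 and Wnt3a, the classic activators of the beta-catenin branch, were listed at 0 in both groups. No difference was detectable for these genes at this depth.

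Of the Wnt genes, 8 stand as close neighbours in 4 pairs. Wnt9a lies 16.2 kb from Wnt3a, and this pair joined the called ligand to a gene listed at 0. Wnt10b and Wnt1 are 11.7 kb apart on chromosome 15, Wnt6 and Wnt10a 6.7 kb apart on chromosome 1, and Wnt9b and Wnt3 24.4 kb apart on chromosome 11. Wnt9a was the only gene of the 8 above 1 FPKM in either group. Within the pair on chromosome 1 Wnt6 and Wnt10a were both above their WT values, and in the pair of Wnt10b and Wnt1 the former was below.

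The Frizzled receptors were the main expressed family, with 8 of 10 members at a mean of 1 FPKM or more. Fzd2, Fzd1, Fzd7 and Fzd3 led in this order in both groups and made up 75.9% of the summed Fzd FPKM in Tet2 KO and 77.7% in WT. Fzd2, a single-exon gene, had 12.1 FPKM in Tet2 KO against 15.2 in WT, a log2 ratio of -0.30 that was not called. Fzd1 had 12.1 and 12.4 FPKM, with a counting interval of the plain log2 ratio from -0.12 to 0.05. Fzd7, the receptor to which Wnt7a is known to bind on satellite cells, had 10.7 FPKM in Tet2 KO against 11.7 in WT, and Fzd3 had 8.84 and 10.1 FPKM. The 4 leading receptors were thus each below their WT value, and the most distant, Fzd2, had a plain log2 ratio of -0.33. Even Fzd2 sat near the middle of the expressed genes, whose median was 13.7 FPKM.

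Fzd9 lies at chr5:135724808-135726917 on the minus strand of mm9 and has a single exon. It had 1.39 FPKM in Tet2 KO against 2.94 in WT, a difference of -1.55 FPKM. Its log2 ratio was -0.72, and the plain ratio was -1.08 with a counting interval from -1.38 to -0.80, on about 144 and 311 fragments. Among the 8 expressed receptors Fzd9 stood in the sixth place in WT, above Fzd8 and Fzd5, and in the last place in Tet2 KO, with Fzd6 just below it at 1.38 FPKM. No order of neighbours can be held against a spread, since none is given.

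Fzd5 had 1.58 FPKM in Tet2 KO against 2.42 in WT. Its log2 ratio of -0.41 was not called, whereas the plain ratio of -0.62, with a counting interval from -0.79 to -0.45, lay just beyond the threshold. Fzd8 had 2.57 and 2.58 FPKM, and its counting interval ran from -0.21 to 0.20. Fzd4, which also serves as the receptor of the non-Wnt ligand Norrin, was the 1 expressed receptor with a higher value, 6.68 FPKM in Tet2 KO against 5.40 FPKM in WT. Its log2 ratio was 0.26 and was not called. Of the 8 expressed receptors 7 were below their WT value, and their median log2 ratio was -0.14, beside -0.0044 over all expressed genes.

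The remaining receptors fell short of a mean of 1 FPKM. Fzd6, known for its part in planar cell polarity, missed this level narrowly with a mean of 0.973 FPKM. It lies at chr15:38837826-38869736 on the plus strand of mm9, with 7 exons, and had 1.38 FPKM in Tet2 KO against 0.568 in WT. This 2.43-fold difference, a plain log2 ratio of 1.28 with a counting interval from 0.95 to 1.62, was the largest among the receptors in either direction. With the pseudocount the log2 ratio was 0.60, also beyond the threshold, so that only its mean FPKM kept Fzd6 from a call. Fzd10 had 0.313 and 0.268 FPKM. Summed over the 10 Frizzled genes, the level was 57.6 FPKM in Tet2 KO against 63.5 in WT.

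**Figure D2:**
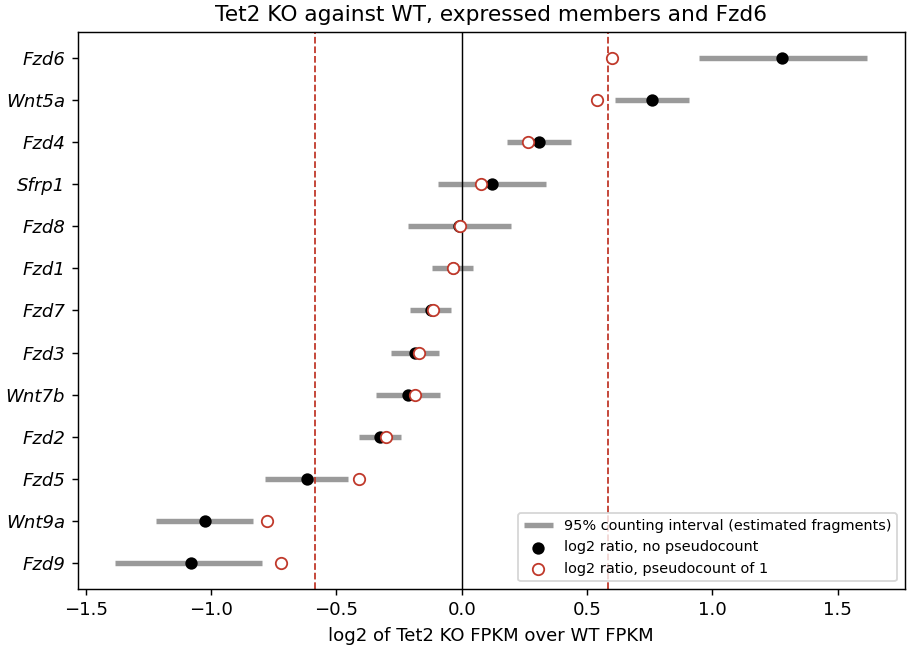
Log2 ratio of Tet2 KO to WT FPKM for the 12 expressed members and Fzd6, plain (black points, with grey 95% counting intervals from estimated fragments) and with a pseudocount of 1 (open red points); dashed lines mark a 1.5-fold difference. Both points of Wnt9a and Fzd9 lie beyond the lower line and both points of Fzd6 beyond the upper line. Wnt5a and Fzd5 cross a line only without the pseudocount.

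Secreted antagonists and potentiators were scarce. Sfrp1 was the 1 member of its family at 1 FPKM or more, with 1.86 FPKM in Tet2 KO against 1.71 in WT and a counting interval of the plain log2 ratio from -0.09 to 0.34. Sfrp2 had 0.723 and 0.515 FPKM, and an antisense gene, Gm16790, shares 16.1% of its exon bases. Sfrp4 and Sfrp5 were below 0.1 FPKM in both groups.

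No Dkk or Rspo gene reached a mean of 1 FPKM. Dkk3 had 0.282 FPKM in Tet2 KO against 0.128 in WT, and Dkk2 had 0.279 and 0.180 FPKM. Dkk1, the best known inhibitor of the co-receptors, was listed at 0 in Tet2 KO and had 0.0260 FPKM in WT, about 3 fragments, and Dkk4 rested on about 1 and 4 fragments. Of the R-spondins, Rspo3 was the highest with 0.0732 and 0.0560 FPKM, and Rspo1, Rspo2 and Rspo4 had 3 fragments or fewer in each group. The secreted modulators of these families were therefore at or near the limit of detection, apart from Sfrp1, Sfrp2, Dkk2 and Dkk3.

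Read together, 9 of the 12 expressed members (75.0%) had a lower value in Tet2 KO, beside 51.2% of all expressed genes, and 3 had a higher one. For 9 of the 12 the counting interval left out 0, so that counting error alone was smaller than the difference, also where the difference was small. These are not the same 9 genes, as they include Wnt5a and Fzd4, which were higher. They leave out Fzd1 and Fzd8, which were lower by less than counting error. Among the 12 members between 0.1 and 1 FPKM, 8 were higher and 4 lower in Tet2 KO. Since Wnt9a and Fzd9 both lay below 5 FPKM, the share of calls at that level was also taken: of 2818 genes with a mean from 1 to under 5 FPKM, 4.65% were called lower and 8.98% were called higher. The members in that band were Wnt9a, Fzd8, Wnt5a, Fzd9, Fzd5 and Sfrp1, of which Wnt9a and Fzd9 were called. With 1 pooled value per group the 2 calls have no replicate check.

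**Figure D3:**
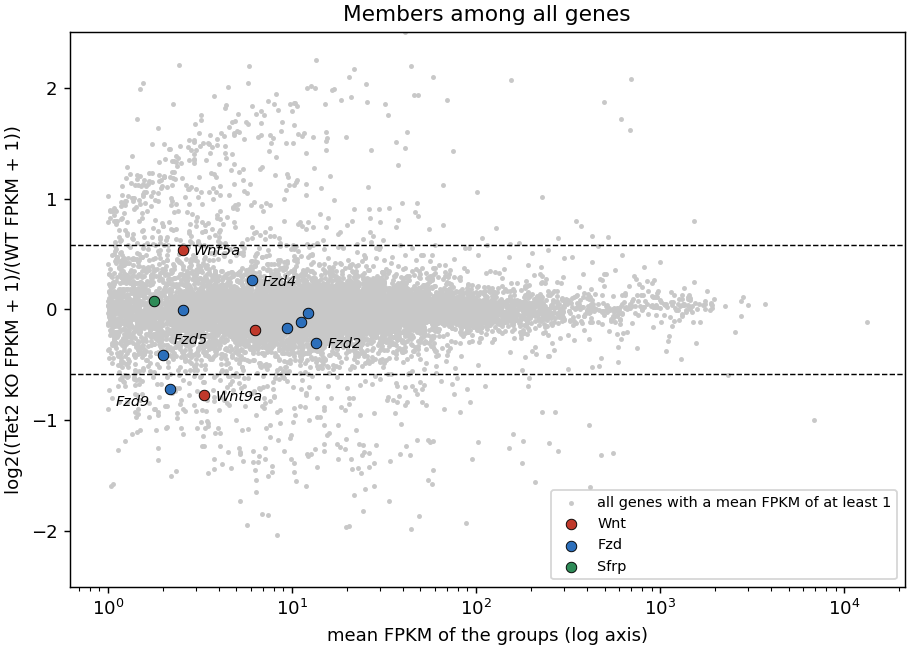
Mean FPKM (log axis) against log2((Tet2 KO FPKM + 1)/(WT FPKM + 1)) for all 11692 expressed genes (grey) and the 12 expressed members (colours by family); dashed lines mark a 1.5-fold difference and 16 genes lie beyond the axis. Wnt9a and Fzd9 sit just outside the lower line, and the other 10 members lie inside both lines.

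Since Tet2 acts on methylated CpG pairs, the promoter sequences of the 2 called members are shown. The 250 bases before the start site came from a RefSeq table of build GRCm38.p6, which had entries for 6 of the 12 expressed members, and each was found once, without a mismatch, in the mm9 genome. Capitals mark CG pairs and the letters CAGCTG, the E-box to which the muscle factor MyoD is known to bind. The Wnt9a sequence lies at chr11:59120182-59120431 on the plus strand and the Fzd9 sequence at chr5:135726918-135727167 on the minus strand, both in mm9.
Wnt9a: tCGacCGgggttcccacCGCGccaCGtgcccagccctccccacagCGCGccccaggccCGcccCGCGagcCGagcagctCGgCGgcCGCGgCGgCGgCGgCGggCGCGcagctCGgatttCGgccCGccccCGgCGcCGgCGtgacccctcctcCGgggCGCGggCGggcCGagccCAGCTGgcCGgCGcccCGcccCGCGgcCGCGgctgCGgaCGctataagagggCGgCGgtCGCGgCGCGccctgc
Fzd9: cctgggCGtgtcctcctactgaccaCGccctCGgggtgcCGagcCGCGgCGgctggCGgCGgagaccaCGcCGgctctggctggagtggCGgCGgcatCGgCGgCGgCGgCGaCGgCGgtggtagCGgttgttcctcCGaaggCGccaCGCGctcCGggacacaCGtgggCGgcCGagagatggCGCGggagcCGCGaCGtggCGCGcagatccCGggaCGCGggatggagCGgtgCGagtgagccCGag

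The Wnt9a sequence held 48 CG pairs and the Fzd9 sequence 42, beside a median of 6 over 32851 RefSeq promoters. As many or more were found in 0.186% and 0.865% of those promoters. That background was not limited to genes expressed here, so it does not show how rare such counts are among expressed genes. The 4 other members with an entry that were not called, Fzd1, Fzd4, Fzd5 and Fzd7, held 12, 25, 32 and 17 CG pairs. The letters CAGCTG, which read the same on both strands, occurred once in the Wnt9a sequence and in none of the other 5, and in 13% of all promoters. The Tcf and Lef core CTTTGA, searched on both strands, occurred in neither called member, once in Fzd1, and in 13.8% of all promoters. The RNA table holds no measure of methylation, so these counts describe the sequences alone.

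The rest of the pathway was read from lists of co-receptors, secretion factors, cytoplasmic and nuclear partners, target genes and the branches outside beta-catenin. Of 109 such genes, 84 were expressed, with 2 called higher and 4 called lower and a median log2 ratio of -0.04. These 6 calls, in both directions, make up 7.14% of the 84 genes. Over all 11692 expressed genes 773 were called, a similar share, with 2.89% lower and 3.72% higher. The calls were uneven across the lists, as 4 of the 6 fell among the target genes of beta-catenin. The 6 genes were Fst and Ccnd2, both higher, and Tnfrsf19, Fgfbp1, Daam2 and Camk2a, all lower. Daam2 and Camk2a were below 1 FPKM in Tet2 KO and passed the minimum only through their WT value. Nfatc4, with 1.17 FPKM in Tet2 KO against 0.441 in WT, had a log2 ratio of 0.589, beyond the threshold. Its mean of 0.804 FPKM kept it from a call, so the split between higher and lower calls depends on the minimum.

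Of 10 expressed co-receptors and receptor partners none was called, and 7 were below and 3 above their WT value. Kremen1, a Dkk receptor, was the most abundant with 46.7 FPKM in Tet2 KO against 53.9 in WT. The co-receptor Lrp6 had 15.6 and 15.0 FPKM and Lrp5 11.9 and 12.9 FPKM. Ror2, a receptor of Wnt5a, was low, with 0.850 FPKM in Tet2 KO against 0.507 in WT. The related Ror1 went the other way, with 0.550 and 0.868 FPKM, and Ryk had 41.7 and 45.5 FPKM. Lgr6, a receptor of the R-spondins, had 1.83 and 1.10 FPKM, the highest log2 ratio of this list at 0.43. The related Lgr4 was more abundant and lower in Tet2 KO, with 5.46 and 6.37 FPKM.

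Of the genes for making and releasing Wnts, Wls, the carrier that brings Wnt proteins to the cell surface, had 42.3 FPKM in Tet2 KO against 54.6 in WT, a log2 ratio of -0.36. Porcn, the enzyme that attaches the lipid, had 3.83 and 4.53 FPKM, and the trafficking gene Tmed2 was the most abundant with 241 and 235 FPKM. None of the 7 genes was called. Of the other secreted antagonists, Igfbp4 led with 49.6 and 48.0 FPKM, Sost had 1.06 and 1.53 FPKM, and Frzb, the Sfrp family member whose name falls outside the rule used here, had 0.0982 and 0.103 FPKM.

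None of the 16 expressed genes of the Dishevelled and destruction complex list was called, and their log2 ratios ran from -0.20 to 0.05. Ctnnb1, which encodes beta-catenin, had 323 FPKM in Tet2 KO against 329 in WT. None of the 16 nuclear partners was called either. Tbl1x led this list with 43.9 and 43.6 FPKM, and Lef1 had 2.03 and 2.17 FPKM.

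Among 12 expressed target genes of beta-catenin, 2 were called higher and 2 lower. These 4 make up 33.3% of the list, beside 3.72% called higher and 2.89% called lower over all expressed genes. Fst, which encodes the myostatin inhibitor follistatin, had 48.0 FPKM in Tet2 KO against 27.0 in WT, and Ccnd2, a D cyclin, had 7.86 and 4.30 FPKM. Tnfrsf19 had 1.60 and 5.09 FPKM, and Fgfbp1, a carrier of fibroblast growth factors, had 2.90 and 9.64 FPKM. Axin2, Nkd1 and Lgr5, targets often read as reporters of the pathway, were low in both groups. Axin2 had 0.215 FPKM in Tet2 KO against 0.211 in WT, Nkd1 had 0.294 and 0.807 FPKM, and Lgr5 0.229 and 0.174 FPKM. Ccnd1 was the most abundant gene of the list, with 263 and 218 FPKM, and was not called. The list moved in no single direction, and its median log2 ratio was 0.01.

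In the planar polarity branch, Daam2, a formin that acts on actin, was at 0.715 FPKM in Tet2 KO against 1.77 in WT and was called lower, and the most abundant gene, Rhoa, had 131 and 133 FPKM. In the calcium branch, Camk2a, a subunit of a calcium-dependent kinase, was called lower with 0.501 and 1.60 FPKM, while Plcb3, the most abundant gene, had 34.2 and 33.2 FPKM. The other 11 expressed genes of the polarity list and the other 10 of the calcium list were not called. Daam2 and Camk2a counted as expressed only through their WT value.

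**Figure D4:**
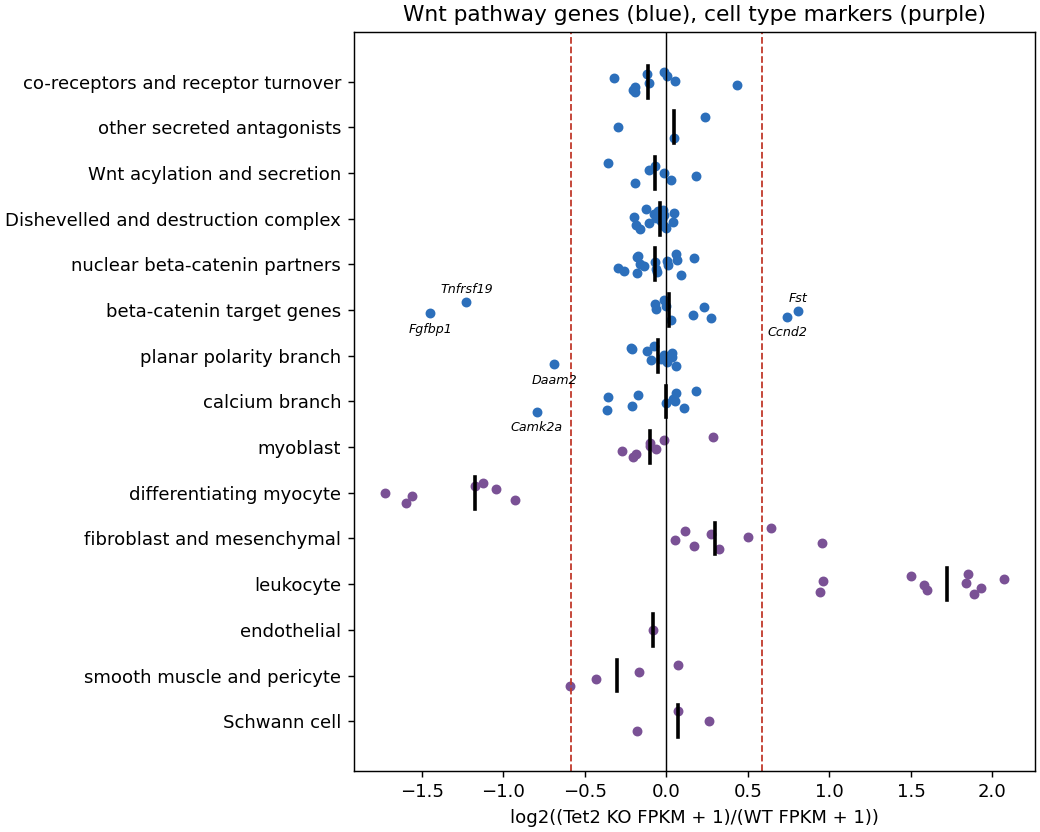
Log2((Tet2 KO FPKM + 1)/(WT FPKM + 1)) of every expressed gene in the Wnt pathway lists (blue) and the cell type marker lists (purple); black bars are list medians and dashed lines mark a 1.5-fold difference. The 6 called pathway genes are named, the 7 genes of differentiating myocytes lie beyond the lower line and the 10 leukocyte genes beyond the upper line.

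Some lists of cell type markers differed between the groups, while others held no called gene. Myoblast genes were abundant, led by Des, with 372 FPKM in Tet2 KO against 449 in WT, and Myod1, with 313 and 336 FPKM, and none of the 8 was called. All 7 genes of differentiating myocytes were called lower, with a summed 730 FPKM in Tet2 KO against 1840 in WT, led by Acta1 (207 and 629 FPKM) and Myog (268 and 554 FPKM). All 10 leukocyte genes were called higher, with a summed 468 and 119 FPKM, led by Lyz2 (253 and 59.5 FPKM) and Ctss (73.2 and 18.4 FPKM), although the sort had removed CD45 and CD11b positive cells. All 8 expressed fibroblast genes were above their WT value, with a median log2 ratio of 0.30, and 2 of them were called higher, Dcn (7.04 and 3.15 FPKM) and Twist2 (3.08 and 1.62 FPKM). The list summed to 480 and 443 FPKM, of which Ly6a, the Sca1 gene, gave 288 and 278 FPKM, although the sort was for Sca1 negative cells, and Col3a1 171 and 152 FPKM. The endothelial list summed to 4.78 and 6.04 FPKM, led by Pecam1 (1.48 and 1.63 FPKM) and Kdr (0.993 and 0.960 FPKM). The smooth muscle and pericyte list summed to 20.7 and 22.4 FPKM, led by Notch3 (14.7 and 14.0 FPKM) and Mcam (3.50 and 4.06 FPKM), with Abcc9 called lower. The Schwann cell list summed to 17.7 and 15.7 FPKM, led by Ngfr (10.8 and 8.82 FPKM) and Cdh19 (2.21 and 2.65 FPKM). No marker was listed at 0 in both groups. The part of these cell types in the values of Wnt9a, Fzd9, Wnt5a and Fzd6 was not tested, and in such bulk RNA fewer cells of a type and less RNA per cell cannot be told apart. Tet2 had 5.79 FPKM in Tet2 KO against 6.64 in WT, a gene-wide value in which a loss of exon 3 cannot be seen, while Tet1 had 0.364 and 0.484 FPKM and Tet3 3.70 and 3.39 FPKM.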

How the data were processed

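Per the labels and the study's methods, the authors made TruSeq libraries from total RNA, trimmed the reads, aligned read pairs to mm9 with TopHat2 2.0.13 and estimated FPKM with Cuffdiff 2.2.1. The annotation, and how the libraries of a group were combined, are not given in the sources used here. The deposited FPKM are 1 value per gene and group. The table also holds the authors' own comparison (status, log2 fold change, statistic, p and q), which was not used; the pooled values alone give no spread for a test, and none was run. Depth per library is not in the table.

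Members, lists and thresholds were chosen with earlier results of these data known. Values were compared at a pseudocount of 1, a mean FPKM of at least 1 and a 1.5-fold difference. The code that makes the calls was tested on simulated data, which checks the code and not the calls. Every expressed member, and of the lists each called gene and the most abundant, was to be named; others were added after their values were seen. The list entries Gpr124, Gpr177, Fam123b and Mymk had no row under those symbols. Fragments were estimated from the longest GENCODE vM1 transcript and a step sought between 0.0167 and 0.03 FPKM x kb, chosen after seeing the data. Over runs of 50 bases, 36 of 41 members shared none with another coding transcript, and 2.48% at most (Wnt4). Starts have 1 added, as the table counts from 0. Python 3.11.15, pandas 2.3.3 and scipy 1.17.1 were used. Alternatives were another pseudocount, minimum, fold or scaling.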

Additional observations from a re-analysis of the deposited data

How the results depend on the processing

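No paired analysis was possible because the values are pooled by group; for the same reason no library could be left out. The 12 expressed members became 10 to 15 under other minimums and under TPM. Of the members called higher, 0 in the report, 1 was called with a pseudocount of 0.1, without a pseudocount and at a smaller fold threshold, 0.322 on the log2 scale (Wnt5a), and 1 with no minimum (Fzd6). With TPM, where rescaling raises all values and so relaxes the minimum and the pseudocount, both were called, which makes 2. Of the members called lower, 2 in the report, 0 were called at 2-fold with the pseudocount, although their plain WT to Tet2 KO folds were 2.03 (Wnt9a) and 2.12 (Fzd9), and 0 with a minimum of 5 FPKM, which leaves both out; the same 2 genes were called under every other alternative, joined by Fzd5 at the smaller fold threshold and with a smaller pseudocount or none. Of the other pathway genes, 0 were called higher at 2-fold. There, 1 was called lower with a minimum of 5 FPKM, 2 at 2-fold and 7 at the smaller fold threshold, instead of 4. No log2 ratio of an expressed member changed sign in 48 recalculations, although neither a pseudocount nor so small a rescaling could turn one of these. Over all genes, 435 higher and 338 lower calls became 823 and 822 at the smaller fold threshold, 243 and 142 at 2-fold, and 182 and 207 with a minimum of 5 FPKM. The spread between libraries was not measured for any value, and members under 0.1 FPKM rest on 10 fragments or fewer.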
